A study of Mus musculus with 2 samples.

Results

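Described here are 7 microRNA loci of the mouse hindbrain, of 1973 loci in the tables: Mir764, Mir1912, Mir1264, Mir1298 and Mir448, which lie in introns of the serotonin receptor gene Htr2c, and Mir204 and Mir211, which lie in introns of the channel genes Trpm3 and Trpm1. The 7 loci were chosen by their host genes, and with their levels and their ratios between the libraries already known from these data, so both are given as a description, with no test. Small RNA was sequenced from the hindbrain of mouse embryos of strain B6NCrl at embryonic day 14.5, with no treatment named in the labels, in libraries of RNA under 30 nucleotides. There was 1 group of 2 libraries, labelled as biological replicates 1 and 2. Replicate 1 was collected on day 24 and replicate 2 on day 30 of July 2014. Each sample is labelled as a single hindbrain and also as a mix of both sexes, and 1 donor label stands on both, so the SD over the libraries may be partly technical.

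An intronic microRNA can come from the host gene's transcript, in which it folds into a hairpin. The hairpin is cut out and trimmed to a short mature strand, whose seed, bases 2 to 8, pairs with target messages. Htr2c encodes the serotonin 2C receptor, a G protein-coupled receptor that is abundant in the choroid plexus, the epithelium in the ventricles that secretes cerebrospinal fluid, and is also made by neurons. Trpm3, the host of Mir204, encodes a cation channel of choroid plexus and pigment epithelium, and Trpm1, the host of Mir211, a channel of melanocytes and retinal bipolar cells. The choroid plexus of the fourth ventricle lies on the hindbrain, and its epithelial cells are multiciliated.

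The mature strands are shown because a count of a locus is a count of reads of these short RNAs. RefSeq (GRCm38.p6) held a mature sequence for all 7 loci, 12 in all, and a hairpin for 6 of them. Capitals mark the seed, bases 2 to 8 from the 5′ end. The strands of the 5 Htr2c-intron loci had 8 different seeds.
mmu-miR-764-5p: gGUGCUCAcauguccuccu
mmu-miR-764-3p: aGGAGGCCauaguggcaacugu
mmu-miR-1912-3p: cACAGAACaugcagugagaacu
mmu-miR-1264-3p: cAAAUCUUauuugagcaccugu
mmu-miR-1298-5p: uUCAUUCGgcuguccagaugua
mmu-miR-1298-3p: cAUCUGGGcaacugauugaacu
mmu-miR-448-5p: gAACAUCCugcauagugcugcc
mmu-miR-448-3p: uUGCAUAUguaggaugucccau

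The strands from the Trpm introns are set beside each other because the 5p strands of Mir204 and Mir211 share their seed, UCCCUUU.
mmu-miR-204-5p: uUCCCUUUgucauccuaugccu
mmu-miR-211-5p: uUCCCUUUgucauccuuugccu
mmu-miR-204-3p: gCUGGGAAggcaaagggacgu
mmu-miR-211-3p: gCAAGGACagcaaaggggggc

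The 5p strands of Mir204 and Mir211 were identical at 21 of 22 positions, and the difference was A17U, written as the base of miR-204-5p, the position from the 5′ end and the base of miR-211-5p. The 3p strands were identical at 14 of 21 positions and had different seeds. A read that covers only the first 16 bases of the 5p strand cannot be told apart between the loci, and reads that mapped to several positions were not assigned. No run longer than 12 bases of a mature strand from the Htr2c introns was found in the hairpin of another locus.

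Few other mouse microRNAs shared these seeds. Among the 1738 mature strands of RefSeq, only mmu-miR-7670-3p shared the seed of the 5p strands of Mir204 and Mir211, and its locus had 0 counts in replicate 1 and 0.450 CPM in replicate 2. CPM is the count of a locus per 1000000 gene-strand counts on microRNA loci. The seed of miR-448-3p, UGCAUAU, was found in no other strand, but its bases 2 to 7 were shared with mmu-miR-153-3p of the neuronal locus Mir153, which stood at 1965 CPM in replicate 1 and at 2553 in replicate 2. The seeds of miR-1264-3p and miR-1912-3p had no match in the table, and neither did their bases 2 to 7.

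The hairpins of the most abundant Htr2c-intron locus and of the Trpm-intron loci show where these strands lie. Capitals mark the annotated mature strands.
Mir1298 hairpin: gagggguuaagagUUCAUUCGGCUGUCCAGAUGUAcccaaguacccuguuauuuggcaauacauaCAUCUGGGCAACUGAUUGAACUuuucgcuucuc
Mir204 hairpin: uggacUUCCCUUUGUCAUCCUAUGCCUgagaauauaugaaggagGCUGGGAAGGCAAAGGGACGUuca
Mir211 hairpin: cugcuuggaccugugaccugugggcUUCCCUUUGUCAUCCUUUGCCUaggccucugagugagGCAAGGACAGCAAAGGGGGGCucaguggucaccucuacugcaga

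The Mir1298 hairpin lies at chrX:147064905-147065002, that of Mir204 at chr19:22750605-22750672 and that of Mir211 at chr7:64205806-64205911, all on the plus strand (GRCm38). The Mir204 hairpin, with 68 bases, was shorter than that of Mir211, with 106. Predicted minimum free energies (RNAfold) were -46.3 kcal/mol for Mir1298, -33.7 for Mir204 and -57.6 for Mir211, or -0.47, -0.50 and -0.54 kcal/mol per base. Those of Mir764, Mir1912 and Mir448 were -49.6, -41.1 and -50.5 kcal/mol. Mir1298 and Mir1912 had the same predicted energy per base to 2 decimals, -0.47 kcal/mol, with mean levels of 4242 and 13.7 CPM.

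Replicate 1 had 5826676 gene-strand counts on microRNA loci and replicate 2 had 6667238. Reads that mapped to several positions, which no locus received, were 33.9% and 34.3% of all reads. Both libraries held 10 or more counts of each of the 7 loci, and of 20.3% of all loci of the tables. None of the 7 had a read on the opposite strand, so that up to 3 counts remain possible, or 0.515 CPM in replicate 1 and 0.450 in replicate 2. These limits and all intervals are 95% exact Clopper-Pearson or limits of a count of 0, and cover counting error only.

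Mir1298 had the highest level, with 30737 counts or 5275 CPM in replicate 1 and 21395 counts or 3209 CPM in replicate 2, a mean of 4242 ± 1461 CPM (SD, n = 2). It was the locus of rank 46 of the 1973 by mean level and of rank 2 among the 120 loci on the X chromosome. Mir204, known from pigment epithelium and choroid plexus, followed at 2759 CPM in replicate 1 and at 2153 in replicate 2, a mean of 2456 ± 428 CPM (SD, n = 2), at rank 66. The ranges of Mir1298 and Mir204 over the 2 libraries did not overlap, with Mir1298 at 1.91 times Mir204 in replicate 1 (interval 1.88 to 1.95) and 1.49 times in replicate 2 (1.46 to 1.52).

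Mir448 stood at 635 CPM in replicate 1 and at 477 in replicate 2, and Mir1264 had 427 and 310 CPM. Their ranges did not overlap either, and Mir448 stood at 1.49 times Mir1264 in replicate 1 (1.41 to 1.57) and 1.54 times in replicate 2 (1.45 to 1.63). The intervals of this proportion overlapped between the libraries.

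Mir1912, Mir764 and Mir211 formed the low end. Mir1912 had 99 counts or 17.0 CPM in replicate 1 and 69 counts or 10.3 CPM in replicate 2. Mir764 had 68 counts or 11.7 CPM in replicate 1 and 63 counts or 9.45 CPM in replicate 2, and its range overlapped that of Mir1912. Mir211 had 23 counts or 3.95 CPM (interval 2.50 to 5.92) in replicate 1 and 30 counts or 4.50 CPM (3.04 to 6.42) in replicate 2, below the range of Mir764. The median of the 401 loci that reached 10 counts in both libraries was 129.8 CPM, so 4 of the 7 loci lay above it and 3 below. Levels were not divided by length, because a read spans a mature strand rather than a part of a long transcript. Loci can differ in how well their strands are captured in a small RNA library, which was not measured.

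**Figure D1:**
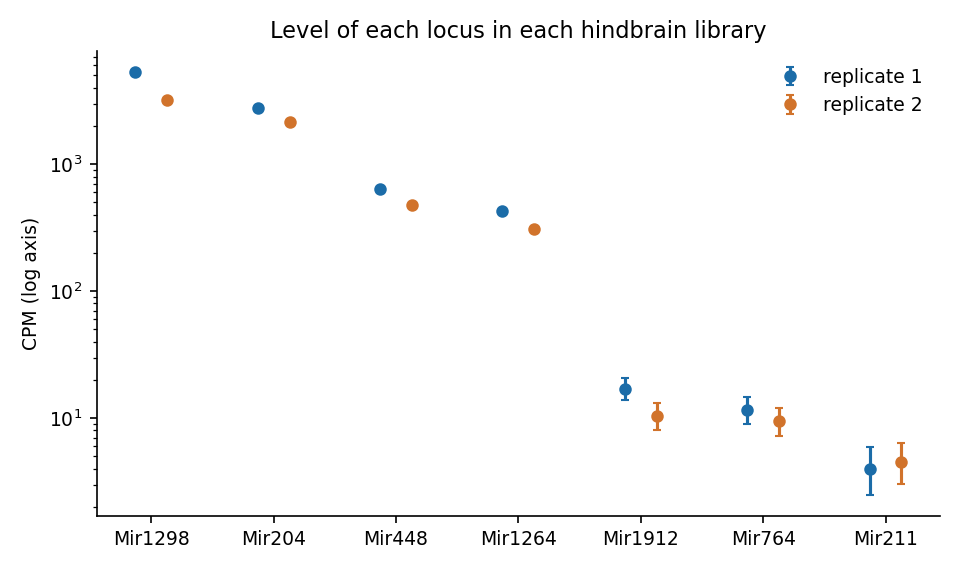
CPM of each locus on a log axis in replicate 1 (blue) and replicate 2 (orange), with exact 95% counting intervals as bars (hidden by the points at high counts). Mir1298, Mir204, Mir448 and Mir1264 lie above 300 CPM in both libraries and the other 3 loci below 20 CPM, and Mir211 is the locus whose point is higher in replicate 2.

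Mir204 and Mir211 differ by 1 base in their 5p strands but had very different counts. Mir204 had 699 times the counts of Mir211 in replicate 1 (interval 466 to 1103) and 478.5 times in replicate 2 (335 to 709). Both are transcribed from the strand of their host. Mir204 lies in intron 6 of a coding transcript of Trpm3, 611.6 kb from the start of the gene, and Mir211 in intron 6 of Trpm1, 52.0 kb from the start of Trpm1. How many reads of Mir211 were lost to the rule on reads with several positions was not tested. It was also not tested how many of its 23 and 30 counts were reads of Mir204 with an error at base 17. The level of Mir211 and its proportion to Mir204 carry this limit.

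The 5 Htr2c-intron loci together reached 6366 CPM in replicate 1 and 4017 in replicate 2, a mean of 5191 ± 1662 CPM (SD, n = 2), or 0.519% of the microRNA counts. All 5 are on the strand of Htr2c and overlap no exon of its annotated transcripts. Mir764 (chrX:147002259-147002366), Mir1912 (chrX:147009441-147009527), Mir1264 (chrX:147010601-147010686) and Mir1298 lie in intron 2 of Htr2c-201, which is 90.8 kb long, and Mir448 (chrX:147158210-147158321) lies in intron 4, which is 93.5 kb long. Mir1298 and Mir448 lie near the 3′ ends of these introns, 7.38 kb and 11.2 kb before the next exon. The 5 loci share a host gene and may share a transcript, so they are not independent of each other.

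Level did not follow distance along the gene. Mir1912 and Mir1264 are 1.07 kb apart, the closest pair, yet Mir1264 had 25.1 times the counts of Mir1912 in replicate 1 (20.6 to 31.1) and 30.0 times in replicate 2 (23.6 to 38.7). Mir1298, 54.2 kb further on, had 12.3 times the counts of Mir1264 in replicate 1 (11.9 to 12.9) and 10.3 times in replicate 2 (9.88 to 10.8). Mir448, after a further 93.2 kb, had less than Mir1298, which was at 8.30 times Mir448 in replicate 1 (8.02 to 8.59) and 6.72 times in replicate 2 (6.48 to 6.98). The tables hold another pair of predicted microRNA loci inside Htr2c, Gm22650 with 15 and 5 counts and Gm24627 with 2 and 0 counts, which the choice of members left out.

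**Figure D2:**
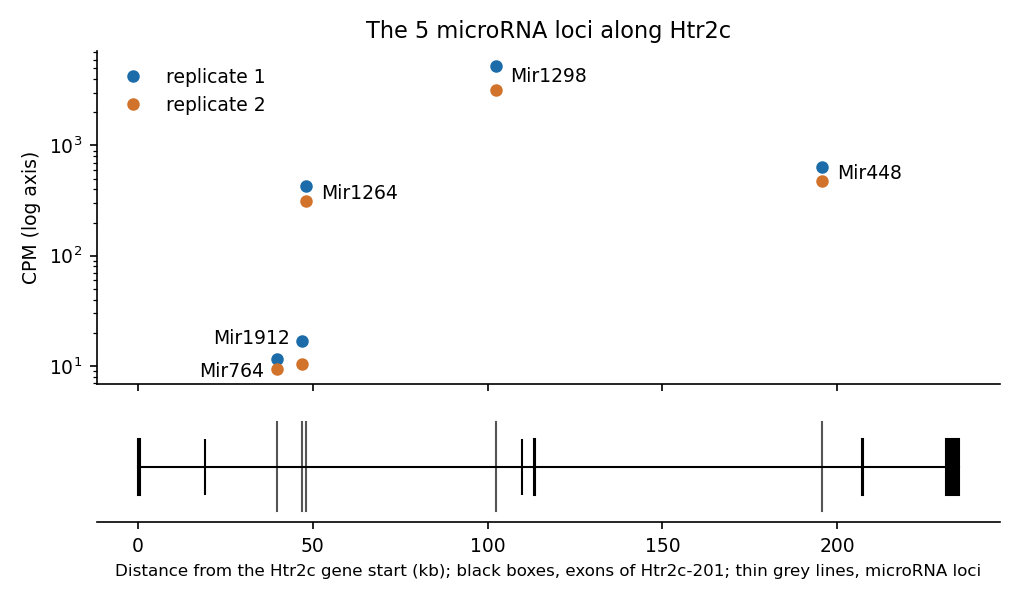
The 5 microRNA loci by distance from the start of Htr2c in kb, with their CPM on a log axis above (blue, replicate 1; orange, replicate 2) and the exons of Htr2c-201 as black boxes below. Mir1912 and Mir1264 stand almost at the same position with levels about 25.1 and 30.0 times apart in the libraries, and Mir1298 in the same intron is the highest.

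Mir1298 made up most of the Htr2c-intron counts, and its share differed between the libraries. It held 82.9% of the counts of the 5 loci in replicate 1 (interval 82.5 to 83.2) and 79.9% in replicate 2 (79.4 to 80.4). Mir448 held 9.98% (9.68 to 10.3) and 11.9% (11.5 to 12.3), and Mir1264 6.71% (6.46 to 6.97) and 7.73% (7.41 to 8.06). Mir1912 held 0.267% and 0.258%, and Mir764 0.183% and 0.235%, with overlapping intervals between the libraries. For Mir1298, Mir448 and Mir1264 the intervals did not overlap, and these shares do not depend on how the libraries are scaled.

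Of the 7 loci, 6 had a lower level in replicate 2 than in replicate 1, and 5 of these 6 share the host Htr2c. Ratios below are log2 of replicate 2 over replicate 1 after TMM scaling, with 0.5 added to each count. Of the 401 loci that reached 10 counts in both libraries, 184 had a ratio below 0 and 217 above. There is 1 library on each side, so these ratios have no replicate check, and the day of collection changed with the replicate and cannot be told apart from it. In bulk tissue, fewer cells of a type and less RNA per cell cannot be told apart either. Mir1298 had a ratio of -0.76 (interval -0.78 to -0.73), or 1.69-fold higher in replicate 1. Mir1912 had -0.75, with a wide interval of -1.22 to -0.30 from its low counts.

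The other Htr2c-intron loci had ratios nearer 0. Mir1264 had -0.50 (-0.59 to -0.42), Mir448 -0.46 (-0.52 to -0.39) and Mir764 -0.35 (-0.87 to 0.17), whose interval includes 0. The sum of the 5 loci had -0.71 (-0.73 to -0.68), and without Mir1298 the other 4 had -0.48 (-0.53 to -0.42). Of the Trpm-intron loci, Mir204 had -0.40 (-0.43 to -0.37), and Mir211 had 0.14 with an interval from -0.69 to 1.00, so no direction could be read for it at this depth.

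Of the 7 loci, 2 (Mir1298 and Mir1912) were lower in replicate 2 by more than 1.5-fold, a fold passed in that direction by 5.24% of the 401 loci that reached 10 counts in both libraries. None of the 7 was higher by that fold, as 2.74% of the 401 loci were. These counts describe the members and support nothing, since the ratios were known when the loci were chosen. The median ratio of the 7 loci was -0.46, and that of the 401 loci was 0.02. Of the 282 loci that reached 100 counts in both libraries, 1 had a lower ratio than Mir1298 and 13 had a lower ratio than Mir204. The 13 include the members Mir1298, Mir1264 and Mir448.

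**Figure D3:**
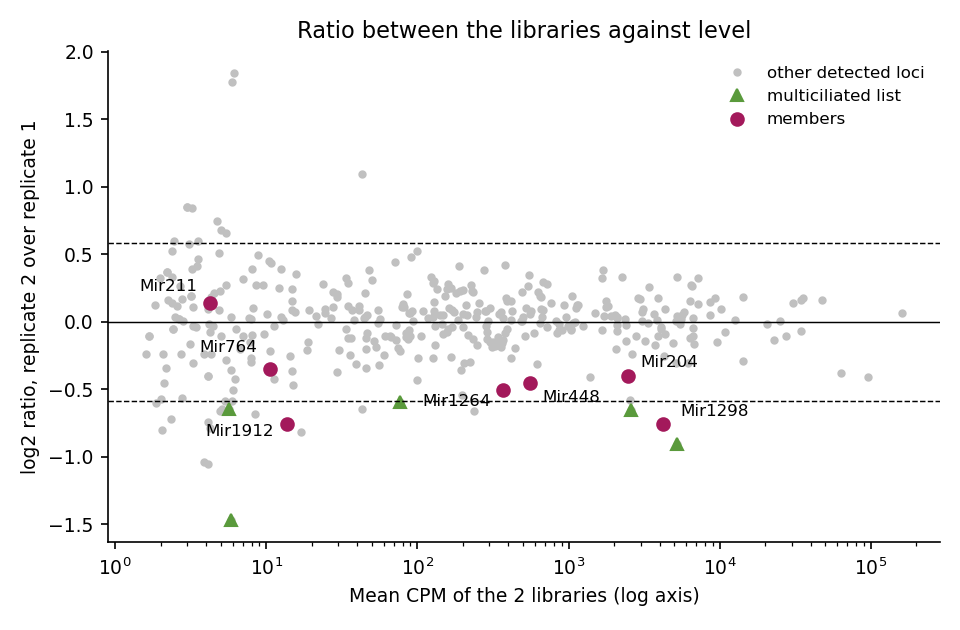
Log2 ratio of replicate 2 over replicate 1 against mean CPM on a log axis for the 401 loci that reached 10 counts in both libraries, with the 7 members in magenta and 5 multiciliated cell loci as green triangles; dashed lines mark 1.5-fold. Mir1298 lies at -0.76 at 4242 CPM, below the other loci of like level except Mir449a, a multiciliated cell locus at -0.90.

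Host messages were not measured in these libraries, so the name choroid plexus was set against other microRNAs. The list for multiciliated cells held 5 loci, and all 5 were lower in replicate 2 by more than 1.5-fold, or 4 of them when scaled by library totals (all but Mir34b). That fold was passed in this direction by 5.24% of the 401 loci that reached 10 counts in both libraries. The list was chosen with earlier results of these data known, so its count is a description. Its summed level was 10028 CPM in replicate 1 and 5857 in replicate 2. Mir449a, which promotes the formation of cilia-bearing cells, had 6775 and 3729 CPM, and Mir34c, of the same seed family, had 3146 and 2059 CPM. Mir34b had 90.6 and 61.8 CPM, while Mir449b and Mir449c had at most 50 counts in a library. The interval of the ratio was -0.78 to -0.41 for Mir34b and -1.39 to 0.07 for Mir449c, which includes 0. The median ratio of the list was -0.65, and its range was -1.47 (Mir449b) to -0.59 (Mir34b).

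The ratio of these marker sums was of the same sign as that of the Htr2c-intron loci and of Mir204, and its part in their ratios was not tested. The list for epithelium, the Mir200 family, had a summed level of 61.8 CPM in replicate 1 and 76.5 in replicate 2, so its members were near the level of Mir1912 rather than of Mir204. Its median ratio was 0.33, with 4 of 5 loci above 0 and 1 below, and Mir429, its most abundant member, had 29.3 and 37.9 CPM, while Mir200c had 18.2 and 19.9 CPM. Epithelial microRNAs outside that family differed from it: Mir203 had a mean of 648 CPM and a ratio of -0.01, and Mir205 a mean of 43.3 CPM and a ratio of -0.64. Of the ciliated cell markers, Mir449a and Mir34c thus stood at levels like those of Mir1298 and Mir204. Mir34b, Mir449b, Mir449c and the Mir200 family stood far lower. Neither list shows which cells held the Htr2c-intron and Trpm-intron microRNAs.

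The median ratios of the lists for other cells of the sample lay above 0. The 4 loci of the neuronal list, from a cell class in which the serotonin 2C receptor is also known, had ratios above 0, with a median of 0.17 and a range from 0.09 (Mir137) to 0.33 (Mir153), and summed to 14295 CPM in replicate 1 and 16242 in replicate 2. Neuron-enriched loci outside that list had ratios on both sides of 0, with 0.18 for Mir149, 0.06 for Mir138-2, -0.01 for Mir138-1, -0.05 for Mir218-1 and -0.36 for Mir218-2. Reads shared by numbered copies, such as Mir138-1 and Mir138-2 or Mir128-1 and Mir128-2, went to neither copy. Ratios of such loci therefore cover only reads particular to a copy. The 3 loci of the sensory Mir183 cluster, Mir183, Mir96 and Mir182, summed to 4099 CPM and 4098 CPM, with ratios of 0.07, 0.27 and -0.20. Mir126a of endothelium had 0.16. Of the red cell loci, Mir144 had 1.09, Mir451a 0.38 and Mir486 -0.47.

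The location on the X chromosome was compared with a like cluster. The 5 measured loci in Clcn5, a chloride transporter gene on the X chromosome, are Mir188, Mir362, Mir500, Mir501 and Mir532, and all 5 are on the strand of their host. Their sum was 2590 CPM in replicate 1 and 2663 in replicate 2, with ratios from -0.13 (Mir362) to 0.07 (Mir500) and an interval of the ratio of sums of -0.03 to 0.03. The 39 detected X-linked loci outside the Htr2c introns had a median ratio of 0.01, with 17 below 0 and 22 above. The Htr2c-intron ratios thus lay below those of Clcn5 in these libraries, with intervals that did not overlap for the sums, and the difference had no replicate check. Ratios below 0 were not particular to Htr2c among X-linked clusters. In the Mir106a-363 cluster, Mir106a had -0.66, Mir20b -0.54, Mir18b -0.34, Mir363 -0.27 and Mir92-2 -0.20. Mir19b-2 of that cluster, with 11 and 17 counts, had 0.37. Reads that Mir92-2 and Mir19b-2 share with copies on another chromosome are not in these ratios.

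**Figure D4:**
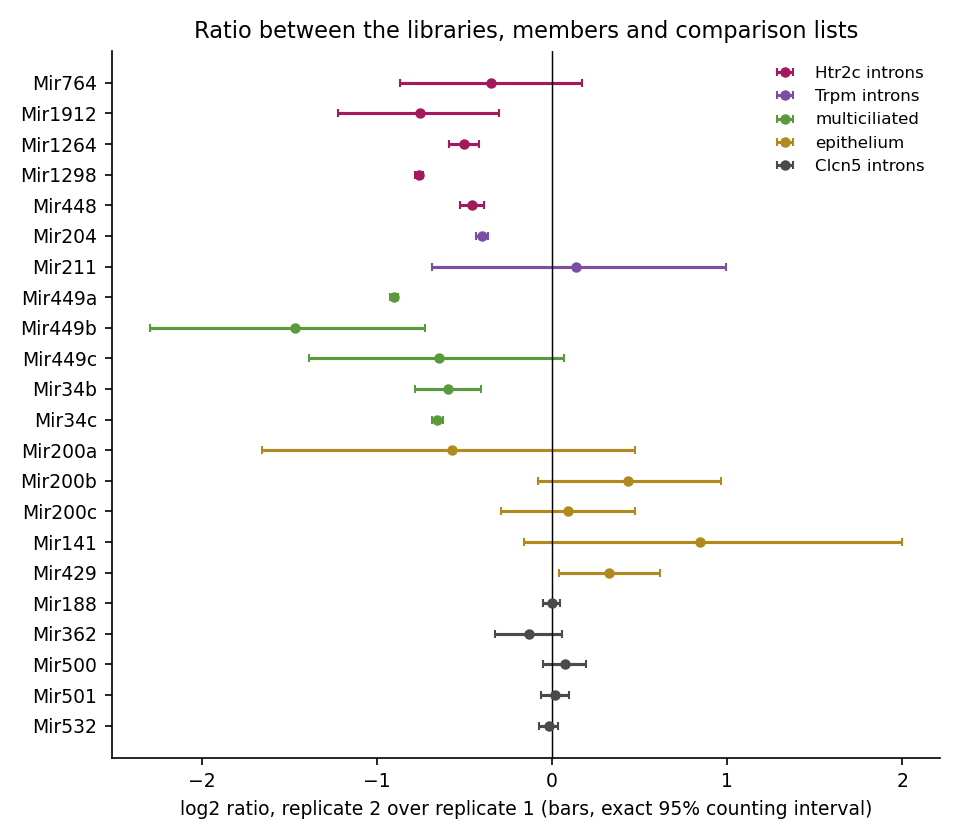
Log2 ratio of replicate 2 over replicate 1 for each member and for the multiciliated, epithelium and Clcn5-intron lists, with exact 95% counting intervals as bars. The Htr2c-intron loci lie between -0.76 and -0.35, the multiciliated loci between -1.47 and -0.59, and the Clcn5-intron loci between -0.13 and 0.07.

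Likeness to the members can be measured here only as the difference between log2 ratios over 2 libraries. Of the loci other than the 7 members that reached 100 counts in both libraries, the 5 nearest to the sum of the Htr2c-intron loci were Mir106a (-0.66), Mir34c (-0.65), Mir205 (-0.64), Mir34b (-0.59) and Mir615 (-0.58). Of these, Mir34b and Mir34c are of the multiciliated list, Mir106a lies on the X chromosome, Mir205 is a microRNA of stratified epithelium and Mir615 lies in the Hoxc cluster. The 5 nearest to Mir204 were Mir10a (-0.41), Mir181b-2 (-0.41), Mir10b (-0.38), Mir574 (-0.37) and Mir155 (-0.43). Mir10a and Mir10b lie in Hox clusters and were far more abundant than Mir204, with 108473 and 70563 CPM in replicate 1.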

How the data were processed

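Small RNA libraries of 2 hindbrain samples in 1 group were analysed from the deposited tables, which hold raw, unnormalized read counts of microRNA loci in columns for both strands, the gene strand and the opposite strand. The lists of files deposited beside them name build mm10 and annotation M4; the aligner and counter are not given in these sources. The 4 rows of unassigned reads stayed out of library sizes. Symbols, coordinates and hosts were taken from GENCODE M21 (GRCm38, the same build) for 1894 of 1973 loci.

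CPM used gene-strand totals. Between-library ratios used TMM factors of edgeR (0.985 and 1.01), estimated on loci whose counts sum to 10 or more, and exact conditional binomial 95% intervals. No p-value was computed, since there is 1 library on each side and the members, lists and rules were chosen with earlier results of these data known. The text names the 7 members, list members with at least 100 counts in each library, and the 5 loci nearest in ratio to the Htr2c-intron sum and to Mir204. Gm22650, Gm24627, Mir449b, Mir449c, Mir486, Mir149, Mir138-1, Mir138-2, Mir203, Mir218-1, Mir218-2 and mmu-miR-7670-3p were named after their values were seen. So were Mir20b, Mir18b, Mir363, Mir92-2 and Mir19b-2. Ratios and intervals were checked on simulated Poisson counts. These vary only by counting error and set folds, as the intervals assume, so the check does not reach other variation between the libraries. Alternatives covered scaling, denominator, strand, pseudocount, count minimum and leaving out each library. Mature strands and hairpins came from RefSeq, and folding energies from RNAfold 2.7.2. Scaling ran in R 4.3.3 with edgeR 4.0.16 or DESeq2 1.42.0, and the rest in Python 3.11.15 with scipy 1.17.1.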

Additional observations from a re-analysis of the deposited data

How the results depend on the processing

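Per 1000000 of all reads, unmapped and multimapping ones included, the Htr2c-intron sum was 2504 and Mir204 was 1181, and the order of the 7 loci by mean level was that of the CPM. With library totals in place of TMM, the log2 ratio was -0.66 for the Htr2c-intron sum and -0.36 for Mir204, and Mir1298 had -0.72. The counts of members and of multiciliated loci past 1.5-fold by scaling were added after the data were seen, and 2 members passed under every scaling tried. The sign of every member's ratio was kept under library totals, DESeq2 size factors, upper quartile, counts of both strands and a pseudocount of 1. For scaling and strand this was bound to hold and adds no support. No member had an opposite-strand read, and the other scalings moved log2 ratios by at most 0.043, against 0.14 for Mir211, the ratio nearest 0. With at least 100 counts in each library, 4 members were detected (Mir764, Mir1912 and Mir211 were not), beside 282 of all 1973 loci. Of these 282 loci, 6 were lower in replicate 2 by more than 1.5-fold, Mir1298 among them, and 1 was higher. Among all loci with any count, 125 were lower and 128 higher by that fold, of which many rest on a few counts. No paired analysis was possible because the series has 1 group. Counts under 100 left the ratios of Mir764 and Mir211 with intervals that include 0.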
